A study of Mus musculus with 2 samples.

Results

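Metalloproteinases and their tissue inhibitors were followed across the cell classes of 2 mouse glioblastomas. The genes were taken by symbol: the matrix metalloproteinases (MMPs) Mmp2, Mmp9, Mmp12, Mmp14 and Mmp15, the ADAMTS protease Adamts1, and the tissue inhibitors of metalloproteinases (TIMPs) Timp1, Timp2, Timp3 and Timp4. All 10 symbols were found among the 27998 mouse genes of both single-cell RNA-seq libraries. Each library came from 1 tumor of the NPCTKO model in a C57BL/6 mouse aged 3 months, labelled #1 and #2 and called tumor 1 and tumor 2 here. In that model, Cas9 with guide RNAs against tumor suppressor genes, and a cassette that labels the transformed lineage with EGFP or DsRed, were electroporated into progenitors of the embryonic brain. By the study's account, 1 of the tumors arose in a Tek-Cre;Ai14 host and the other in a Tbx18CreERT2/+;Ai14 host. The labels do not say which is which, and host genotype and tumor cannot be told apart in any difference between the 2 libraries. No tumor-free brain was sequenced in these libraries, so every comparison is between cell classes of the same 2 tumors.

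MMPs are zinc-dependent endopeptidases that are made as inactive precursors and cut collagens, laminins, elastin and many cell-surface proteins. Mmp2 and Mmp9 are secreted gelatinases, Mmp12 is the macrophage elastase, and Mmp14 and Mmp15 are anchored in the cell membrane. Adamts1 belongs to a secreted family that cleaves proteoglycans such as versican and aggrecan. TIMPs bind the active site of these enzymes. Timp2 has a second role, since it bridges Mmp14 to the Mmp2 precursor on the cell surface so that a neighboring Mmp14 molecule can activate it. In glioblastoma this system is known for remodeling of vessel walls and for invasion of the parenchyma.

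The files carried no cell annotation. Cells were therefore gated on fixed marker genes that include none of the 10 genes, and each class is called "-like" for the markers it carried. Tumor 1 gave 8411 glioma-like, 929 astrocyte-like, 589 microglia-like, 42 monocyte-like, 2 neutrophil-like, 41 endothelial-like and 5 mural-like cells. Tumor 2 gave 6741, 110, 396, 945, 158, 28 and 23 cells in the same order. Oligodendrocyte-like (265 and 279 cells), macrophage-like (268 and 301) and T-cell-like (267 and 581) cells were gated as further points of comparison. In all, 84.2% of the 12850 cells kept in tumor 1 and 61.7% of the 15507 kept in tumor 2 entered a class, with median depths of 18750 and 14016 UMIs per cell. The libraries shared 51 barcode sequences (0.357% and 0.274% of their barcodes).

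The labels of some classes need a qualification. Astrocyte-like cells carried the glioma-like markers at 43.1 and 33.7 UMIs per 10000 in tumors 1 and 2, against 43.2 and 30.6 in glioma-like cells, and EGFP, the label of the transformed lineage, at 82.7 and 106 against 97.7 and 75.1. The class is therefore defined by its astrocyte genes on top of the glioma genes and was not shown to be host tissue. Endothelial-like cells of tumor 2 carried EGFP at 117 per 10000, which came mainly from 6 of the 28 cells. In tumor 1, 3 of 41 endothelial-like cells exceeded 50 EGFP UMIs per 10000. The neutrophil-like cells of tumor 2 were shallow, with a median of 3967.5 UMIs, and had 69.2 EGFP UMIs per 10000. Monocyte-like cells carried the macrophage-like markers at 303 and 88.1 and the microglia-like markers at 8.14 and 3.31 UMIs per 10000. That class was therefore not alike in the 2 tumors.

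Sequences upstream of the start site are given for 4 genes whose levels set classes apart: Mmp12 for the monocyte-like and macrophage-like cells, Mmp14 for myeloid and mural-like cells, and Timp3 and Adamts1 for endothelial-like cells. Each is the 100 bases before the RefSeq start, 5′ to 3′ on the strand of the gene (assembly GRCm38.p6), with matches to the searched motifs in capitals. Those motifs were the AP-1 element TGAGTCA or TGACTCA, the Sp1 element GGGCGG or CCGCCC (each pair is both strands of 1 motif), and TATAAA on the strand of the gene only. Motifs of different kinds did not share bases.
Mmp12, upstream of its second listed start, chr9:7347274-7347373, plus strand, AP-1 in capitals: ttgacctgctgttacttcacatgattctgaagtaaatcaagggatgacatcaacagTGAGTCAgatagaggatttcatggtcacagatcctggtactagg
Mmp14, chr14:54431498-54431597, plus strand, 2 Sp1 matches in capitals: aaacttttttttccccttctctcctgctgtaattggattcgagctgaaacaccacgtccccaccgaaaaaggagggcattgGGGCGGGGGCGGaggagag
Timp3, chr10:86300312-86300411, plus strand, Sp1 in capitals: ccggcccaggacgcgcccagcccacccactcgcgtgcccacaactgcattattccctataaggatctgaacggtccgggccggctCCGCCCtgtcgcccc
Adamts1, chr16:85803114-85803213, minus strand, 2 Sp1 matches and TATAAA in capitals: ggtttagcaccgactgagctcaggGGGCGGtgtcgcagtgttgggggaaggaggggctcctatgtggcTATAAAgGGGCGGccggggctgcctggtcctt
Over windows of 300 bases around the start, the Sp1 element was in 35.7%, AP-1 in 5.20% and TATAAA in 8.32% of 32851 mouse windows. RefSeq windows were matched for 8 of the 10 genes (not for Mmp2 and Mmp9). Timp1, Timp2 and Mmp15 also held the Sp1 element in their 300 bases, whereas Timp4 and the first listed start of Mmp12 held none of the 3 motifs. The second listed start of Mmp12, shown above, lies inside the annotated gene, and its window also held TATAAA just after the start. These are letter matches and no binding was measured.

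Class distributions differed among the 10 genes, though those of Timp3 and Adamts1 were alike. Timp2 was highest in microglia-like cells, Timp4 in astrocyte-like cells, and Timp3 in endothelial-like and mural-like cells. Mmp12 was found chiefly in macrophage-like and monocyte-like cells, Mmp9 in neutrophil-like cells and in some mural-like cells, and most Mmp15 UMIs lay in glioma-like cells. Levels below are UMIs per 10000 UMIs of the summed class, tumor 1 first, with exact 95% Poisson intervals where printed. These intervals cover counting error only. One UMI stands for 1 captured 3′ transcript end, so levels were not divided by gene length.

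**Figure D1:**
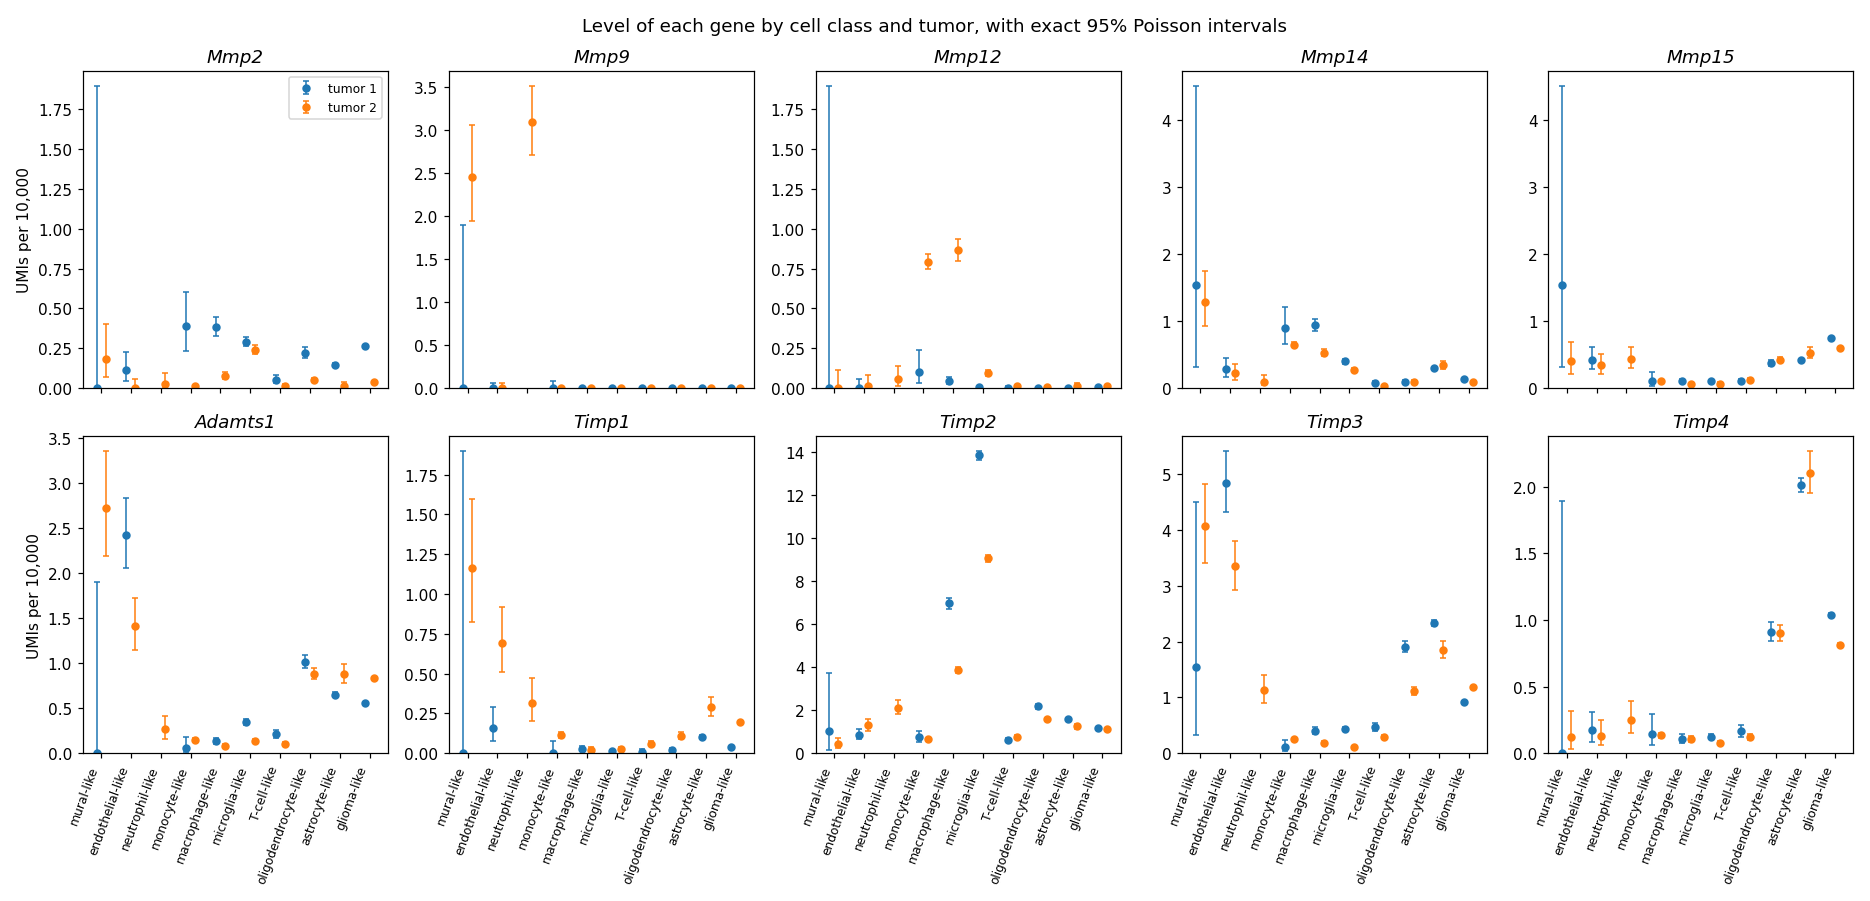
Level of each of the 10 genes (UMIs per 10000, linear axes that differ between genes) in each gated class, 1 point per tumor with its exact 95% Poisson interval; the 2 neutrophil-like cells of tumor 1 are left out. Timp2 stood at 13.8 and 9.04 in microglia-like cells, above every other class.

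Droplet data contain free RNA, and T-cell-like cells served as a reference class, in which most of these genes were taken as background. Their median depth was 10333 and 8737 UMIs, against 20259 and 22693 in glioma-like cells. EGFP stood at 15.0 and 10.6 per 10000 in T-cell-like cells. Of the 10 genes, Timp2 had the highest level there (0.596 and 0.770), followed by Timp3 (0.460 and 0.288). Timp4 (0.163 and 0.118), Mmp15 (0.0993 and 0.116) and Adamts1 (0.207 and 0.101) came next, and Mmp2, Mmp14 and Timp1 were all at or under 0.0662. In tumor 1 the T-cell-like Timp3 value was 167 UMIs in 37 of 267 cells, 52 of them in 1 cell. Adamts1 gave 75 UMIs in 24 cells. Monocyte-like cells of tumor 1 lay under both, at 0.102 for Timp3 and 0.0612 for Adamts1. The T-cell-like levels are therefore no floor of free RNA. Values at or under them in another class are called background below, and their source was not tested.

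The pairs of classes tested below were compared on UMI counts summed per class and tumor, with edgeR's quasi-likelihood test, the tumor as a block, and Benjamini-Hochberg adjustment over all genes tested. There are 2 tumors, so each p-value rests on the spread that all class sums share. Mmp9 did not pass the filter on low counts, which left 9 genes tested of the 10. Against glioma-like cells, microglia-like cells had 4 of the 9 genes higher and 4 lower, where 20.4% and 28.0% of all 14811 genes were called higher and lower. Endothelial-like cells had 4 higher and 1 lower than glioma-like cells (14.3% and 17.1% of all genes). Astrocyte-like cells had 2 higher and 0 lower (5.71% and 1.86%). Monocyte-like cells had 2 higher and 1 lower than microglia-like cells (3.57% and 3.58%).

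Mural-like cells fell under the planned minimum of 10 cells a tumor, with 5 cells in tumor 1. They were compared in a separate fit with a minimum of 5 cells, a choice made after the cell counts were seen. There, 2 of the 9 genes were higher and 1 lower than in glioma-like cells (6.60% and 6.90% of 14843 genes), and 1 was higher than in endothelial-like cells (2.01%, with 2.18% lower). The median log2 fold change of the 9 genes was −1.03 for microglia-like, −0.0089 for endothelial-like and 0.30 for astrocyte-like cells, each against glioma-like cells. Over all genes the same medians were −0.27, −0.32 and 0.0013.

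**Figure D2:**
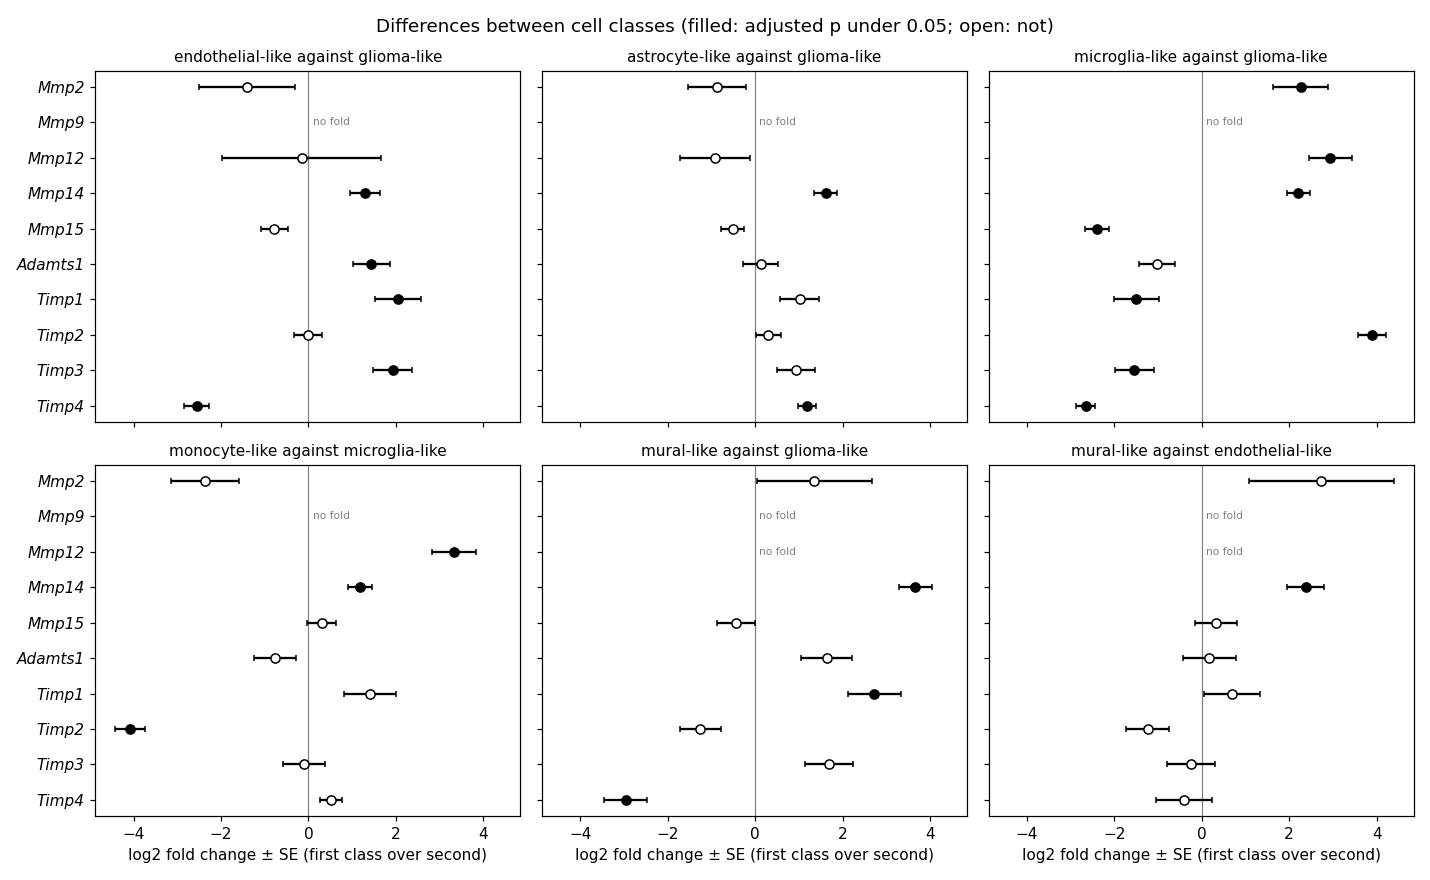
Log2 fold change of the tested genes in each comparison, with its standard error, first class over second, and filled symbols where the edgeR adjusted p passed the threshold. No fold is drawn for Mmp9 or against mural-like sums without a UMI. Timp2 gave 3.90 for microglia-like against glioma-like cells and −4.09 for monocyte-like against microglia-like cells.

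Among the secreted gelatinases, Mmp2 (chr8:92827291-92853420, plus strand, GRCm38 with GENCODE vM21 as for the other genes) was at 0.291 and 0.239 in microglia-like cells, against 0.263 and 0.0399 in glioma-like cells. The microglia-like level was close in both tumors, and the glioma-like level was not. Mmp2 was called higher in microglia-like than in glioma-like cells (edgeR log2 fold change 2.26 ± 0.63 SE, adjusted p = 0.00948), yet the log2 ratio was 0.15 in tumor 1 and 2.58 in tumor 2. Monocyte-like cells had 0.388 and 0.0116, and macrophage-like cells 0.383 and 0.0760, so these classes were also lower in tumor 2. The monocyte-like value of tumor 1 rests on 19 UMIs in 7 of 42 cells, which carried more macrophage-like markers than those of tumor 2. T-cell-like cells had 0.0524 and 0.0121, so the monocyte-like value of tumor 2 lay at their level. With 1 library a tumor, the difference between tumors has no replicate and was not tested.

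Within glioma-like cells of tumor 1, Mmp2 was at 0.333 in cells with at least 3 of 5 committed-progenitor genes (Gpr17, Neu4, Bmp4, Fyn, Tnr) and at 0.134 in the other cells. In tumor 2 the same values were 0.0426 and 0.0355.

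Mmp9 (chr2:164940780-164955850, plus strand) gave 32 UMIs in all 12850 cells of tumor 1 and 476 in the 15507 cells of tumor 2. Neutrophil-like cells held 7 UMIs in 2 cells in tumor 1 and 233 UMIs in tumor 2, where 58.2% of the cells had at least 1. The level in tumor 2 was 3.08 (2.70 to 3.51). It was measured at the lowest depth of any class in that tumor, and thinning every cell to 2000 UMIs left 40.4% with Mmp9. T-cell-like cells had 1 UMI in tumor 1 and 0 in tumor 2. Glioma-like cells had 0.000669 and 0.00362.

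In tumor 1, glioma-like cells held 13 of the 32 Mmp9 UMIs. In tumor 2, ungated cells held 88 and glioma-like cells 65 of the 476. The mural-like class of tumor 2 came next in level after neutrophil-like cells. It had 80 UMIs in 7 of 23 cells (30.4%), 36 of them in 1 cell. Those 7 cells had 0 UMIs of the neutrophil genes Retnlg, S100a8 and S100a9. The gate itself required mural markers and left out cells that also passed the neutrophil-like gate, so these counts are a description and no independent check of what the cells are. They carried the mural genes Pdgfrb (55 UMIs) and Rgs5 (207 UMIs), and 48 UMIs of the contractile gene Acta2. The 16 mural-like cells without Mmp9 had 91 Pdgfrb, 1311 Rgs5 and 681 Acta2 UMIs, and the fibrillar collagen gene Col1a1 gave 22 UMIs in the 7 cells and 7 in the 16. In tumor 1, 0 of 5 mural-like cells had Mmp9, and 3 UMIs, taken as the limit that a count of 0 allows, would be a level of 1.54 per 10000 (the exact 95% Poisson limit is 1.90). The 7 cells were singled out after their values were seen and belong to 1 tumor.

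Mmp12 (chr9:7344381-7369499, plus strand), the elastase of macrophages, was at 0.0443 and 0.865 in macrophage-like cells and at 0.102 and 0.791 in monocyte-like cells. Both classes were far lower in tumor 1, where the monocyte-like value rests on 5 UMIs. Monocyte-like cells were called higher than microglia-like cells, which had 0.00513 and 0.0910 (edgeR log2 fold change 3.33 ± 0.49, adjusted p = 0.00101). Microglia-like cells were in turn called higher than glioma-like cells (2.94 ± 0.50, edgeR adjusted p = 3.16e-04), where Mmp12 was at 0.00242 and 0.00997. The log2 ratio behind that call was 3.19 in tumor 2 and 1.08 in tumor 1, where it rests on 7 microglia-like UMIs and on 47 glioma-like UMIs, 38 of them in 1 cell.

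Few cells carried most of the Mmp12 transcripts. In tumor 2, 189 of 945 monocyte-like and 43 of 301 macrophage-like cells had a UMI, against 5 of 581 T-cell-like cells. There, 83 cells with at least 10 UMIs held 69.6% of the 3520 UMIs. Of these cells, 40 were monocyte-like, 14 macrophage-like, 3 microglia-like, 1 glioma-like and 25 in no class. The highest count, 350 UMIs, was in a cell outside every gate, and ungated cells held 40.5% of the UMIs of Mmp12 in tumor 2. Of the 134 Mmp12 UMIs of tumor 1, ungated cells held 54 and glioma-like cells 47. Macrophage-like cells held 19 of them and monocyte-like cells 5. The end of Mmp12 overlaps Mmp1b on the opposite strand, and Mmp1b had 0 UMIs in both libraries.

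Of the membrane-type enzymes, Mmp14 (chr14:54431612-54445364, plus strand) was highest in mural-like cells, followed by macrophage-like and monocyte-like cells. Microglia-like cells had 0.396 and 0.260, against 0.126 and 0.0866 in glioma-like cells (edgeR log2 fold change 2.21 ± 0.27, adjusted p = 2.01e-05). Monocyte-like cells, at 0.898 and 0.644, were above microglia-like cells (1.18 ± 0.27, edgeR adjusted p = 0.0181). Under the limit on UMI counts described below the second of these calls was lost (1.04, edgeR adjusted p = 0.0693), as with gates that let in cells carrying other markers (0.85, edgeR adjusted p = 0.344). Macrophage-like cells lay beside monocyte-like cells at 0.938 and 0.524. The share of cells with a UMI was 42.9% and 50.3% in monocyte-like cells, against 3.75% and 3.61% in T-cell-like cells, so this signal was well over background. Thinned to 2000 UMIs, the shares were 12.9% and 11.8% for monocyte-like against 0.475% and 0.492% for T-cell-like cells.

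Astrocyte-like cells had 0.297 and 0.340 Mmp14 UMIs per 10000 and were called above glioma-like cells (1.62 ± 0.27, edgeR adjusted p = 0.00282). Mural-like cells had the highest level in both tumors, 1.54 (3 UMIs in 5 cells) and 1.29 (42 UMIs in 23 cells), and were called above glioma-like (3.67 ± 0.37, edgeR adjusted p = 7.34e-06) and above endothelial-like cells (2.37 ± 0.41, edgeR adjusted p = 0.00288). The counts of tumor 1 give a wide interval, 0.318 to 4.51, and the call against endothelial-like cells was lost with gates that let in cells carrying other markers (1.37).

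Endothelial-like cells had 0.281 and 0.220 Mmp14, from 18 and 15 UMIs, and were called above glioma-like cells (1.29 ± 0.34, edgeR adjusted p = 0.0112). That call rested on a few cells. Without the cells over 50 EGFP UMIs per 10000, a limit set after seeing the data, the endothelial-like level was 0.133 and 0.0602 and the log2 fold change against glioma-like cells was −0.086 (edgeR adjusted p = 0.913). Without the cells over 2 times the median UMI count of their class it was −0.22 (edgeR adjusted p = 0.844). Thus the direction of the Mmp14 difference between endothelial-like and glioma-like cells is not settled by these data.

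Mmp15 (chr8:95352268-95375080, plus strand) was at 0.750 and 0.596 in glioma-like cells. Mural-like cells had 1.54, from 3 UMIs with an interval of 0.318 to 4.51, and 0.398. Microglia-like cells had 0.106 and 0.0645 and were called lower (edgeR log2 fold change −2.40 ± 0.28, adjusted p = 1.60e-05). Their level was close to or under that of T-cell-like cells (0.0993 and 0.116), as were those of macrophage-like cells (0.0980 and 0.0553) and monocyte-like cells (0.102 and 0.103). Astrocyte-like (0.410 and 0.526) and endothelial-like cells (0.422 and 0.338) lay between, and neither passed the test against glioma-like cells (edgeR adjusted p = 0.283 and 0.0731). Glioma-like cells held 83.6% and 78.2% of all Mmp15 UMIs while making up 65.5% and 43.5% of the cells kept.

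Adamts1 (chr16:85793827-85803113, minus strand) was highest in endothelial-like cells of tumor 1 and in mural-like cells of tumor 2, with a lower level in the neural classes. Glioma-like cells, the largest class, held 61.7% and 72.1% of its UMIs. Endothelial-like cells had 2.42 (2.06 to 2.83) and 1.41 (1.14 to 1.72), against 0.554 and 0.836 in glioma-like cells (edgeR log2 fold change 1.44 ± 0.43, adjusted p = 0.0217). The endothelial-like and glioma-like intervals did not overlap in either tumor, and the log2 ratio was 2.13 in tumor 1 and 0.75 in tumor 2. Without the EGFP-high cells the endothelial-like level was 2.05 and 1.06, the latter from 53 UMIs and nearer the glioma-like 0.836. Mural-like cells of tumor 2 had 2.73, with 21 of 23 cells carrying a UMI, and the 5 mural-like cells of tumor 1 had 0, where 3 UMIs would be a level of 1.54. The mural-like class was not called against glioma-like cells (edgeR log2 fold change 1.64, adjusted p = 0.0786). Cells with both endothelial and mural markers, left out of both classes, had 3.17 and 2.51. Microglia-like cells had 0.344 and 0.138 and missed the threshold against glioma-like cells (−1.03, edgeR adjusted p = 0.0577).

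Among the inhibitors, Timp2 (chr11:118301069-118355740, minus strand) gave the widest separation of classes. Microglia-like cells had 13.8 and 9.04 (8.87 to 9.21), against 1.15 and 1.13 in glioma-like cells. The fold change was 14.9 (log2 3.90 ± 0.33, edgeR adjusted p = 6.86e-07). At least 1 Timp2 UMI was found in 99.8% and 98.7% of microglia-like cells, while T-cell-like cells gave 41.2% and 53.9%. At 2000 UMIs a cell these shares were 87.0% and 73.2% for microglia-like against 11.0% and 15.4% for T-cell-like cells. Microglia-like cells were 4.58% and 2.55% of the cells kept and held 31.4% and 22.4% of all Timp2 UMIs.

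Timp2 split the myeloid classes. Macrophage-like cells had 6.95 and 3.84, whereas monocyte-like cells had 0.755 and 0.636, close to the T-cell-like 0.596 and 0.770. Monocyte-like cells were called lower than microglia-like cells (edgeR log2 fold change −4.09 ± 0.34, adjusted p = 1.43e-05). Neutrophil-like cells of tumor 2 had 2.12 and oligodendrocyte-like cells 2.17 and 1.56. Endothelial-like cells, at 0.844 and 1.31, were not called different from glioma-like cells (edgeR log2 fold change −0.0089 ± 0.31). Without the EGFP-high cells that fold change was −1.61 and passed the threshold. Timp2 overlaps Cep295nl on the same strand.

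**Figure D3:**
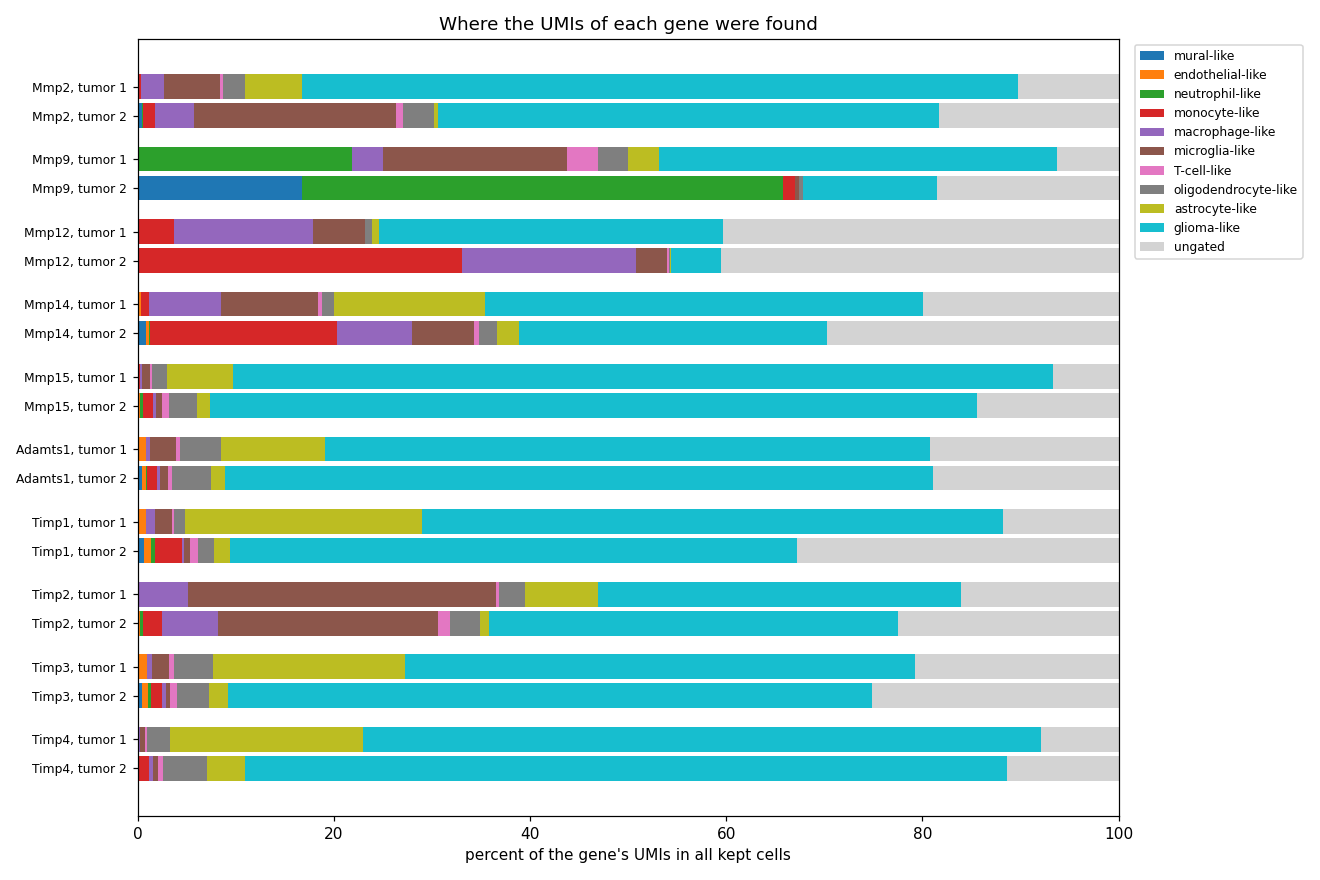
Share of the UMIs of each gene (percent of its UMIs in all cells kept) that lay in each class, 1 bar per gene and tumor, with cells in no class in gray. Glioma-like cells held 83.6% and 78.2% of Mmp15, while microglia-like cells held 31.4% and 22.4% of Timp2.

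Timp3 (chr10:86300372-86349506, plus strand) binds the extracellular matrix and also inhibits ADAM proteases. Among the gated classes it was highest in endothelial-like cells in tumor 1, and in mural-like and endothelial-like cells in tumor 2. Endothelial-like cells had 4.84 (4.32 to 5.41) and 3.35 (2.93 to 3.81), against 0.912 and 1.19 in glioma-like cells (edgeR log2 fold change 1.92 ± 0.45, adjusted p = 0.00588). Cells with endothelial and mural markers had 5.25 and 5.37, and mural-like cells 1.54 (3 UMIs) and 4.07. The mural-like class was not called against glioma-like cells (edgeR log2 fold change 1.69, adjusted p = 0.0543). Part of the endothelial-like signal of tumor 2 lay in EGFP-high cells: without them the level was 4.17 and 1.14, and the fold change of 1.18 no longer passed the threshold. Tumor 1 alone thus kept a separation that tumor 2 did not.

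Astrocyte-like cells had 2.34 and 1.85 Timp3 UMIs per 10000, above both glioma-like levels, but the fold change of 0.93 ± 0.44 was not called (edgeR adjusted p = 0.229). Microglia-like cells were called lower than glioma-like cells (−1.54 ± 0.45, edgeR adjusted p = 0.0126), at 0.436 and 0.114. The log2 ratio was −1.06 in tumor 1 and −3.38 in tumor 2. Both microglia-like values were under the T-cell-like 0.460 and 0.288, and with gates that did not exclude cells carrying markers of another class the call was lost (−0.78, edgeR adjusted p = 0.187).

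Timp4 (chr6:115241892-115252205, minus strand), an inhibitor known for its restricted tissue distribution and expression in brain, marked the neural classes. Astrocyte-like cells had 2.02 (1.96 to 2.07) and 2.11 (1.96 to 2.27), against 1.04 and 0.815 in glioma-like cells (edgeR log2 fold change 1.18 ± 0.21, adjusted p = 0.00392, or 0.0527 with the gates that let in cells carrying other markers). A UMI was found in 87.9% and 82.7% of astrocyte-like and 66.6% and 64.5% of glioma-like cells, and the T-cell-like shares were 13.5% and 14.6%. Oligodendrocyte-like cells had 0.912 and 0.902. Microglia-like (0.124 and 0.0728), endothelial-like (0.172 and 0.132) and mural-like cells (0 and 0.122) were all called lower than glioma-like cells, with log2 fold changes of −2.65, −2.56 and −2.96 (edgeR adjusted p = 6.99e-07, 2.31e-05 and 7.46e-04). Each of those levels was near the T-cell-like 0.163 and 0.118, so how low the gene truly was in these classes cannot be told apart from background.

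Timp1 (chrX:20870166-20874735, plus strand), the inducible inhibitor of the family, was low in most cells and very high in a few. Mural-like cells of tumor 2 had 1.16 (0.823 to 1.60) and those of tumor 1 had 0 UMIs. The class was called above glioma-like cells (edgeR log2 fold change 2.73 ± 0.60, adjusted p = 0.00583), and this rests on tumor 2. Endothelial-like cells had 0.156 and 0.690, against 0.0360 and 0.195 in glioma-like cells (2.05 ± 0.53, edgeR adjusted p = 0.00999). The same order held in both tumors, with log2 ratios of 2.12 and 1.82. The tumor 1 value rests on 10 UMIs in 3 of 41 endothelial-like cells, 8 of them in 1 cell. Without the EGFP-high cells the level in tumor 2 was 0.542, and without cells over 2 times the median UMI count of their class the fold change of 1.08 was not called. Microglia-like cells were called lower than glioma-like cells (−1.50 ± 0.51, edgeR adjusted p = 0.0283), at 0.0147 and 0.0290. That call was lost with DESeq2 (adjusted p = 0.0835), under the UMI limit (edgeR adjusted p = 0.303) and with gates that did not exclude cells carrying markers of another class (edgeR adjusted p = 0.0587).

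In tumor 2, 10 cells with at least 50 Timp1 UMIs held 25.1% of its 6065 UMIs, and the highest single cell had 373. Of the 95 cells with at least 10 UMIs, 51 were glioma-like and 38 were in no class. In tumor 1, 21 cells with at least 10 UMIs held 39.2% of 1180 UMIs, and 12 of them were glioma-like.

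Timp1, Timp3 and Timp4 each lie within a synapsin gene on the opposite strand (Syn1, Syn3 and Syn2), and the sources do not say whether counting used the strand. Over all cells kept, Syn1 had 0.131 and 0.0374 and Syn3 0.0600 and 0.0283 UMIs per 10000. Syn2 was at 0.858 and 0.670 in glioma-like cells, where Timp4 was at 1.04 and 0.815, and reached 0.903 and 0.591 in astrocyte-like cells. Timp4 was higher in astrocyte-like than in glioma-like cells in both tumors, and Syn2 was not higher in tumor 2.

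Glioma-like cells were not uniform in these genes. States were read from 5 genes each, with at least 3 needed, and a cell could belong to several. The lists come from earlier results of the same data and the values are a description. Hypoxic cells (Adm, Ndrg1, Ankrd37, Vegfa, Egln3; 126 and 410 cells) had 0.164 and 0.739 Timp1 UMIs per 10000, against 0.0319 and 0.138 in the other glioma-like cells. They also had more Timp3, 1.74 and 1.47 against 0.885 and 1.17. Mitotic cells (Mki67, Top2a, Aspm, Prc1, Cdk1; 2740 and 2199 cells) had less Timp4, 0.739 and 0.644 against 1.28 and 0.957, and less Timp3, 0.572 and 1.03 against 1.18 and 1.33. The Poisson intervals of the state and of the other cells did not overlap for these genes in either tumor. They cover counting error only and leave out the spread between cells, and few cells held much of the Timp1. Non-overlap is therefore no test of a difference between states. Hypoxic and mitotic cells also had a higher median UMI count than the other glioma-like cells in both tumors.

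Cells with interferon-induced genes (Cxcl10, Ifi47, Iigp1, Igtp, Gbp2; 3672 and 5131 cells) differed between the tumors. In tumor 1 they had 1.36 Timp3 and 0.810 Adamts1, against 0.409 and 0.271 in the other cells. In tumor 2 they had 1.22 Timp3 and 0.798 Adamts1, against 1.04 and 1.02. The Timp3 difference was thus small in tumor 2 and the Adamts1 difference had the opposite sign. Cells that pass a state list were deeper: the median was 24249 UMIs in interferon-positive cells of tumor 1, against 18357 in the others. The part of depth in these values was not tested.

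**Figure D4:**
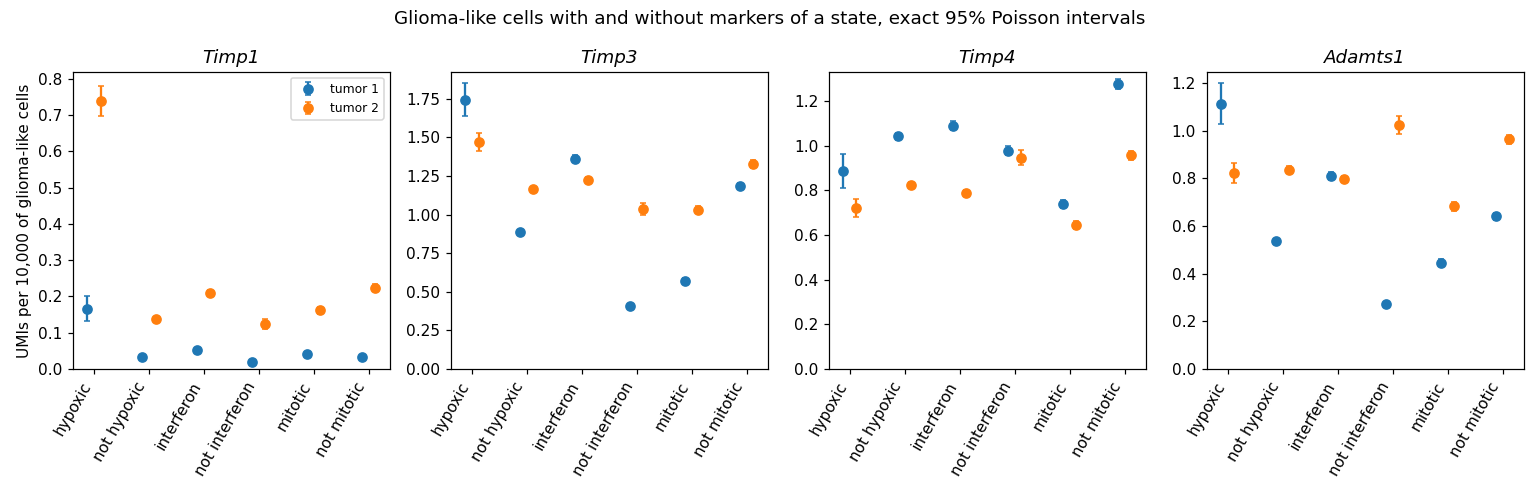
Timp1, Timp3, Timp4 and Adamts1 in glioma-like cells that carry the genes of a state and in those that do not (UMIs per 10000, exact 95% Poisson intervals, 1 point per tumor). Timp1 in hypoxic cells stood at 0.164 and 0.739, against 0.0319 and 0.138 in the other cells.

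The balance of inhibitor to protease transcripts differed across classes. It was taken as the UMIs of the 4 TIMPs over the UMIs of the 6 proteases, and since capture differs between genes the ratio is meaningful only between classes. Microglia-like cells had 12.6 and 11.7 TIMP UMIs per protease UMI, and monocyte-like cells had 0.645 and 0.663. Macrophage-like cells lay between at 4.68 and 2.60, as did astrocyte-like (4.02 and 3.09), endothelial-like (1.86 and 2.76) and glioma-like cells (1.85 and 2.12). T-cell-like cells, the reference class for background, also lay in this range at 2.87 and 4.60. Neutrophil-like (0.963) and mural-like cells (0.822) of tumor 2 also had fewer TIMP than protease UMIs. The summed TIMP level of monocyte-like cells, at 1.00 and 1.13 per 10000, was under the 1.23 and 1.23 of T-cell-like cells, so it was not above the background. In microglia-like cells Timp2 gave 18877 of 19661 and 10929 of 11190 TIMP UMIs, and the other 3 TIMPs, taken apart after the values were seen, gave 0.501 and 0.272 UMIs per protease UMI.

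**Figure D5:**
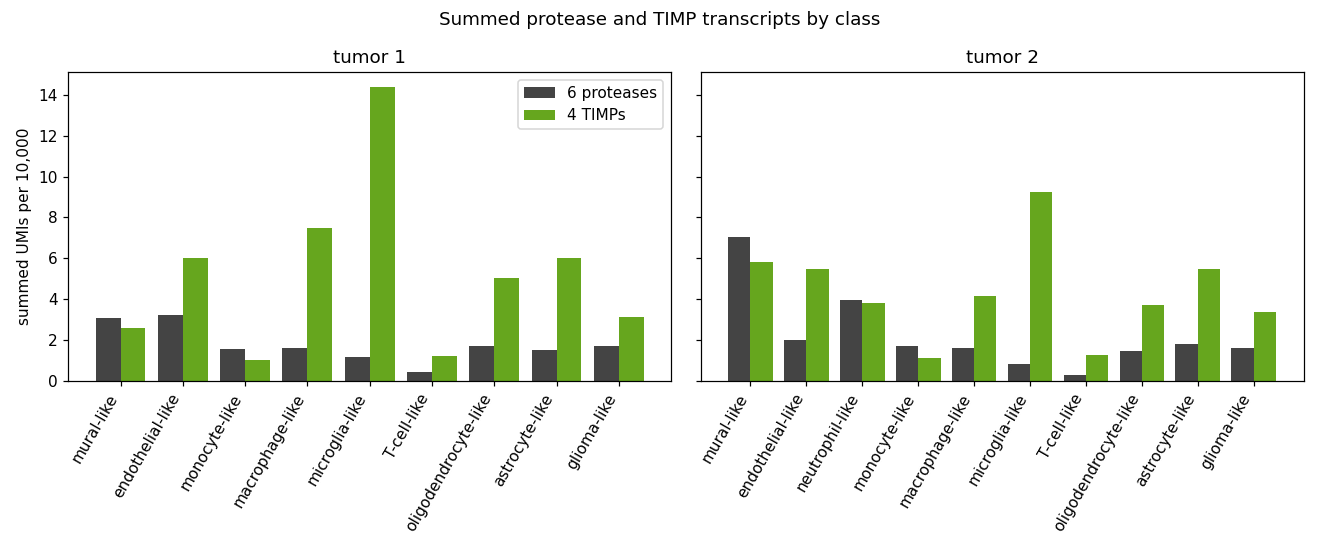
Summed UMIs per 10000 of the 6 proteases and the 4 TIMPs in each class, 1 panel per tumor. The TIMP bar exceeds the protease bar most in microglia-like cells (ratio 12.6 and 11.7) and is the shorter one in monocyte-like cells (0.645 and 0.663).

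Mmp14, Timp2 and Mmp2, the parts of the surface complex that activates Mmp2, were looked for in the same cells. Both Mmp14 and Timp2 were found in 46.7% and 40.4% of microglia-like, 58.6% and 50.5% of macrophage-like, 21.4% and 24.7% of monocyte-like, and 12.2% and 11.3% of glioma-like cells. In T-cell-like cells the share was 2.25% and 2.41%. Since 99.8% and 98.7% of microglia-like cells had Timp2, their share is in effect the share with Mmp14. Timp2 was found in 275 of 276 and 160 of 161 microglia-like cells with Mmp14. All 3 genes were found together in 17.8% and 15.4% of microglia-like cells, 20.9% and 8.64% of macrophage-like and 11.9% and 0.529% of monocyte-like cells, against 276 of 8411 and 101 of 6741 glioma-like cells. The T-cell-like shares were 1.12% and 0.344%. These shares were not thinned, and median depth was 20599 and 29501.5 UMIs in microglia-like cells, against 20259 and 22693 in glioma-like cells. No share expected from the single genes was set beside them, so whether the genes occur together more often than that was not tested.

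Other genes of the system came from 3 lists: 16 further MMPs, 29 further ADAMTS and ADAM proteases, and 21 activators, inhibitors and receptors. Of the 9 further MMPs tested, microglia-like cells had 4 higher and 3 lower than glioma-like cells (20.4% and 28.0% of all genes), endothelial-like cells 1 and 1 (14.3% and 17.1%, so near or under the share of all genes), and astrocyte-like cells 0 and 1 (5.71% and 1.86%). Monocyte-like cells had 3 higher and 0 lower than microglia-like cells (3.57% and 3.58%). They included Mmp19 (0.204 and 0.364 in monocyte-like, against 0.0198 and 0.0422 in microglia-like cells, log2 fold change 3.26) and the neutrophil collagenase Mmp8 (1 and 262 UMIs, against 1 and 3). Mmp16, a membrane-type enzyme, had 0 UMIs in mural-like cells of both tumors, against 0.887 and 0.528 per 10000 in glioma-like cells. In endothelial-like cells the Mmp25 call rested on 3 and 1 UMIs.

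Of the 22 ADAMTS and ADAM genes tested, 5 were higher and 10 lower in microglia-like than in glioma-like cells, where 20.4% and 28.0% of all genes were, so the higher share was near that of all genes. The counts were 4 and 2 in endothelial-like (14.3% and 17.1%) and 1 and 0 in astrocyte-like cells (5.71% and 1.86%). In the same list, 0 were higher and 1 was lower in monocyte-like than in microglia-like cells (3.57% and 3.58%). Adam33 was at 0.0315 and 0.0290 in microglia-like cells, against 0.000257 and 0.000557 in glioma-like cells. Adam12 had 0 UMIs in endothelial-like cells of both tumors, against 12 UMIs in mural-like cells of tumor 2 (0 in tumor 1) and 0.288 and 0.132 per 10000 in glioma-like cells. Adam22, a protein without protease activity, had 0 mural-like UMIs, against 0.373 and 0.0885 per 10000 in glioma-like cells. In the fit with mural-like cells, 24 genes of this list were tested, of which 4 were higher and 1 lower than in glioma-like cells (6.60% and 6.90% of all genes), and 1 higher and 0 lower than in endothelial-like cells (2.01% and 2.18%).

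Of the 21 genes of the activator list, 12 were higher and 2 lower in microglia-like than in glioma-like cells (20.4% and 28.0% of all genes). The counts were 11 and 3 for endothelial-like (14.3% and 17.1%), 8 and 1 for mural-like (6.60% and 6.90%) and 6 and 0 for astrocyte-like cells (5.71% and 1.86%), each against glioma-like cells. Monocyte-like cells had 1 higher and 5 lower than microglia-like cells (3.57% and 3.58%), and mural-like cells 3 higher and 3 lower than endothelial-like cells (2.01% and 2.18%). Plau, the urokinase that generates plasmin and so starts MMP activation, was at 0.0931 and 0.190 in microglia-like cells, against 0.00118 and 0.00212 in glioma-like cells (edgeR log2 fold change 6.96, adjusted p = 3.13e-07). It had 0 UMIs in endothelial-like cells of both tumors, and 17 UMIs in mural-like cells of tumor 2. Tgfb1, a growth factor released from its latent form by MMPs, was at 1.69 and 2.30 in microglia-like cells, against 0.0261 and 0.0577 in glioma-like cells. T-cell-like cells also carried it, at 1.47 and 2.02.

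Lcn2, a lipocalin that binds Mmp9 and shields it from degradation, was at 2.91 and 7.03 in endothelial-like cells, against 0.0116 and 0.246 in glioma-like cells (edgeR log2 fold change 6.82, adjusted p = 2.71e-05). Spock2, a proteoglycan of the testican family, was at 13.2 and 3.54 in endothelial-like cells and had 0 UMIs in mural-like cells. Its relative Spock1 had 0 UMIs in monocyte-like cells, against 0.0601 and 0.0422 per 10000 in microglia-like cells. In astrocyte-like cells the cysteine protease inhibitor Cst3 was at 167 and 155, against 10.6 and 9.99 in glioma-like cells (3.98, edgeR adjusted p = 8.95e-06). The protease trap A2m (0.124 and 0.219, against 0.00855 and 0.0138) and Serpinf1 (0.144 and 0.127, against 0.00947 and 0.0127) were also called higher there.

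The genes whose pattern over the 16 class sums was most like each of the 10 were found by Pearson's r of log2(UMIs per 10000 + 0.1), among 14802 genes. Points share their library and the r values are a description. Timp4 was most like Fbxo44 (0.991), Adgrb1 (0.985) and Pth1r (0.983). Timp3 and Adamts1 both had Fermt2 (0.981 and 0.972) and Socs5 (0.967 and 0.969) among their nearest genes, and Adamts1 also had Cxx1a (0.967). Timp2 was most like Hebp1 (0.941), Ly6g6e (0.933) and Xlr (0.933). Mmp15 was most like Adarb2 (0.975), Zfp664 (0.962) and Skp1a (0.961).

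Mmp12 was most like Gm5150 (0.972), the collagenase Mmp13 (0.949) and Ms4a4a (0.944). Mmp14 was most like Apobec1 (0.921), Tor3a (0.917) and the complement gene C3 (0.902). Timp1 was most like Eaf2 (0.928), Hspa1b (0.919) and Avpi1 (0.907), and Mmp2 was most like Ap3d1 (0.933), Nfxl1 (0.919) and 9030624J02Rik (0.892). Mmp9 was near 0 in all 16 sums, which do not include the neutrophil-like and mural-like classes, and gets no such list.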

How the data were processed

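The authors deposited filtered UMI counts per gene and barcode, 1 matrix for each of the 2 libraries, made from dissociated tumor with the 10x Single Cell 3′ kit V2. The submitters' processing notes name Cell Ranger 4.0.0, Seurat, mm10 and GRCm38; strand use is not given in the sources used here. The matrices hold 14302 and 18596 barcodes with 282961884 and 295366782 UMIs of mouse genes. Cells with at least 500 genes, under 20% mitochondrial and under 5% hemoglobin UMIs were kept. Python 3.11.15 with numpy 2.4.6, scipy 1.17.1 and pandas 2.3.3 gated cells by how many markers of a list they carried, and cells with markers of another class were left out. This was the treatment of doublets; no caller was run. Endothelial-mural cells (25 and 8, median 40221 and 42653.5 UMIs) stayed out of both classes.

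Raw counts were summed per class and tumor. The test was edgeR 4.0.16 (glmQLFit and glmQLFTest, TMM, filterByExpr, R 4.3.3) with class and tumor as terms, over 16 sums of 8 classes, or 18 of 9 with mural-like cells, and a threshold of 0.05. Gate markers stayed in the adjustment and were left out only of the shares and medians over all genes. TMM makes fitted fold changes differ from ratios of levels. The tumor entered as a block, since classes gated from 1 library share their mouse. Deviations of the 28 class pairs correlated within tumors at 0.0752 to 0.734, median 0.376. Cells are not replicates. The endothelial-like against glioma-like test was also tried on simulated counts. These took their library sizes and a common spread from the fitted data and held no tumor effect.

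The 10 genes and all lists were chosen with earlier results of these data known. All 10 are named. From the other lists, up to 3 genes with the largest fold change past the threshold and the same sign in both tumors are named per comparison, and for each of the 10 the 3 genes most alike. Some of the items these rules select are not reported here. Alternatives were DESeq2 1.42.0 and its size factors, no filter, no block, each tumor alone, a 10% mitochondrial limit, gates without exclusion, a UMI cap at 2 times the class median, 1 more marker, and, chosen after seeing the data, the EGFP limit and the fit with mural-like cells. Intervals are exact 95% Poisson intervals. Thinned shares are expected shares when each cell is drawn down to 2000 UMIs. Gene positions and sequences come from GENCODE vM21 and RefSeq.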

Additional observations from a re-analysis of the deposited data

Results flagged for a closer look

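Timp3 moved in opposite directions in the 2 tumors between monocyte-like and microglia-like cells. The log2 ratio of levels was −2.10 in tumor 1, where the monocyte-like value is 5 UMIs, and 1.12 in tumor 2. Both monocyte-like levels (0.102 and 0.248 UMIs per 10000) lay under those of T-cell-like cells (0.460 and 0.288). Each tumor is 1 library, so this difference between tumors was not tested.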

How the results depend on the processing

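Without the replicate block, that is without the tumor term, the number of the 9 genes called was 3 in place of 5 for endothelial-like against glioma-like cells, 4 in place of 8 for microglia-like against glioma-like cells and 1 in place of 3 for monocyte-like against microglia-like cells. It was 0 in place of 2 for astrocyte-like against glioma-like cells (edgeR, with 2 genes at an unadjusted p under 0.05; DESeq2 with the block called 2). The UMI cap gave 3 for endothelial-like and 5 in place of 3 for mural-like cells, each against glioma-like cells. With 1 more marker astrocyte-like cells gave 4. Without the filter on low counts mural-like cells gave 6 against glioma-like and 2 in place of 1 against endothelial-like cells, Mmp9 among them in both. Gates without exclusion gave 6 and 0 in these comparisons (edgeR, 1 gene at an unadjusted p under 0.05 in the second; DESeq2 on the main gates called 1), and left 6 of the 10 genes with their highest class. Mmp14 in endothelial-like against glioma-like cells turned to −0.22 under the UMI cap and −0.086 without EGFP-high cells; the cause was not tested. The other scaling moved the median of all genes by 0.20 in endothelial-like and 0.13 in mural-like against glioma-like cells. Of single-gene values refitted, 461 kept their side of the threshold, 22 lost and 19 gained a call. A further 2, called in at least 1 of the fits, changed direction. Values called in neither fit were counted as kept even where the sign changed. In each tumor alone, 0 of 40 values of called genes changed direction. Values with 3 or fewer UMIs in either class were left out of this count. The calls came from the same tumors, so it is no independent check. Neutrophil-like against monocyte-like cells was not run, since tumor 1 had 2 neutrophil-like cells. Depth limits mural-like cells most: their 19448 UMIs in tumor 1 put the level of 3 UMIs at 1.54 per 10000.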
